A study of Homo sapiens with 12 samples.

Results

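The 10 genes described here encode growth factor receptors of the receptor tyrosine kinase class: EGFR, ERBB2, ERBB3, MET, FGFR1, FGFR2, FGFR3, IGF1R, AXL and EPHA2. They were chosen by name, as the rows of these genes among the 38516 genes of the deposited table, and all 10 were present. All 10 were also among the 17823 genes tested, which had at least 0.5 RPKM (reads per gene, corrected for exon length and library depth) in at least 3 libraries. FGFR1 passed this filter through the KYSE510 libraries, since none of its KYSE150 libraries reached 0.5 RPKM.

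Receptor tyrosine kinases sit in the plasma membrane, bind a growth factor outside the cell, pair up, and phosphorylate tyrosines on each other inside it. Adaptor proteins dock on these sites and pass the signal to the RAS-MAPK and PI3K-AKT chains, which promote growth and survival. In squamous epithelium EGFR is the best known of the class, and in esophageal squamous carcinoma its gene is often amplified or its protein abundant.

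The series holds 12 RNA-seq libraries from KYSE150 and KYSE510, established human cell lines derived from squamous carcinomas of the esophagus. From each came 3 control libraries and 3 libraries from cells in which HCP5, a long non-coding RNA gene, was silenced. Cells of all 4 groups were grown in RPMI-1640 with 10% fetal bovine serum, so ligands from serum were present throughout. The titles of control and silenced libraries alike begin with "sh". The reagent sequences, the time after silencing, whether cells were pools or clones, and whether replicates were separate cultures are not given in the sources used here. P-values therefore measure the spread between these libraries, which may be technical.

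HCP5 itself was measured at 0.779, 0.745 and 0.786 RPKM in the KYSE150 controls and at 0.315, 0.418 and 0.579 RPKM in the silenced libraries. In KYSE510 the controls had 0.914, 1.85 and 1.40 RPKM and the silenced libraries 0.505, 0.951 and 0.948 RPKM. The silenced library was lower in 6 of 6 same-numbered pairs. The change averaged over both lines was -0.49 on the log2(RPKM + 0.5) scale, with an adjusted p of 0.185. Fitted with the replicate number as a block, its adjusted p was 0.0295. The mean RPKM of HCP5 changed by -43.2% in KYSE150 and -42.4% in KYSE510, on 26 to 147 reads per library. The added 0.5 holds back the change of such a low gene. Voom on reads recovered from the RPKM gave an averaged change of -0.83. Of 9 squamous epithelium markers, 8 averaged at least 1 RPKM in each group. SOX2 was near 0 in KYSE150 (0.160 RPKM in controls) and PKP1 near 0 in KYSE510 (0.0746 RPKM). The summed markers of fibroblasts reached at most 0.822 RPKM in any library and those of endothelium at most 2.15 RPKM. Among 4 leukocyte markers PTPRC, CD3E and LYZ reached at most 0.170 RPKM, while CD68, a lysosomal protein, was between 29.7 and 47.1 RPKM. Libraries held 20035025 to 28202422 assigned reads. Each silenced KYSE150 library (26281327 reads or more) was deeper than each KYSE150 control (22700935 or fewer), and the part of this depth gap in the silencing results was not tested.

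The sequence upstream of a RefSeq start is shown for 5 members, chosen because the control lines differed by more than 1 on the log2 scale in these genes. EGFR, AXL and FGFR2 were higher in KYSE150, and FGFR3 and IGF1R in KYSE510. The sequences are from RefSeq on GRCh38.p14, 5′ to 3′ on the strand of the gene, ending at or before the start. EGFR covers chr7:55018767-55019016 (plus strand), AXL chr19:41218973-41219202 (plus), FGFR2 chr10:121598459-121598694 (minus), FGFR3 chr4:1793043-1793292 (plus) and IGF1R chr15:98648289-98648538 (plus). Capitals mark the GC box, GGGCGG or its reverse complement CCGCCC.
EGFR: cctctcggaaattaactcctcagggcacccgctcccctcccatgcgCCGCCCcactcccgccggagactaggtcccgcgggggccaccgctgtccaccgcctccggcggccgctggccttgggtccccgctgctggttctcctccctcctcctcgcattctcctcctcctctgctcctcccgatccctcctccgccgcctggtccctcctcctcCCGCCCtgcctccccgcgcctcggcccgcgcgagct
AXL: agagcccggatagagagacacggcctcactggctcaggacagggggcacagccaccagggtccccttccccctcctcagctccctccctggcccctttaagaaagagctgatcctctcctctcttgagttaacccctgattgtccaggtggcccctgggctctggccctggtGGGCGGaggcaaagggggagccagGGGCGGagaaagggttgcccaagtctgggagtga
FGFR2: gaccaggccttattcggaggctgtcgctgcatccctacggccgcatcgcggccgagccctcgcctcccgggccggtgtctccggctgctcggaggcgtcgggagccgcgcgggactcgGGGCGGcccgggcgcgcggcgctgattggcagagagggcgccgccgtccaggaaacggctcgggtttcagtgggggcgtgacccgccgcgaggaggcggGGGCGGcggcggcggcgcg
FGFR3: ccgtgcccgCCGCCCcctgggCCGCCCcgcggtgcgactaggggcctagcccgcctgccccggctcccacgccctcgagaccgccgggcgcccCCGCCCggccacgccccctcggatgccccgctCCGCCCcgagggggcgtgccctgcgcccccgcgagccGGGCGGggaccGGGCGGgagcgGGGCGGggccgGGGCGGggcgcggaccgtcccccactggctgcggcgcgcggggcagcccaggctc
IGF1R: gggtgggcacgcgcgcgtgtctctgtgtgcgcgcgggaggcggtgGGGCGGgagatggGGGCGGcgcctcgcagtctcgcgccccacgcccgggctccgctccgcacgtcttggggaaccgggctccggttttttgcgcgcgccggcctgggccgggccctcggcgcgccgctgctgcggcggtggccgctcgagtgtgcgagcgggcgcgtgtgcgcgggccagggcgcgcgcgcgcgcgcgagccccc

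FGFR3 had 8 GC boxes in this stretch and each of the other 4 genes had 2. The RefSeq table gave 14 windows for 8 of the members, each of 250 bases before and 50 after a start, and none was used for ERBB3 or FGFR1. A GC box was present on either strand in 8 of 14 windows, belonging to 7 of 8 members, against 45.0% of 35116 windows of all genes. The stretches printed above were cut from such windows. The full windows of FGFR3, IGF1R, FGFR2, EGFR and AXL were 86.3%, 79.7%, 79.3%, 75.3% and 66.0% G or C, and the median of all windows was 58.7%. The E box CACGTG, the core site of MYC-family factors, was found in 1 member window, that of MET, and in 7.3% of all windows. The AP-1 element TGANTCA was found in 1 window of EGFR and in the window of ERBB2 (7.7% of all windows), and TATAAA in that same EGFR window (11.5% of all windows). Genes of both line patterns thus carried the GC box, and these letter matches describe the windows only.

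The receptors of KYSE150 were dominated by AXL and EGFR, and those of KYSE510 were spread more evenly. In the KYSE150 controls AXL was highest at 49.6 ± 4.92 RPKM (SD, n = 3), followed by EGFR at 30.3 ± 3.60 RPKM (SD, n = 3). MET, EPHA2 and FGFR2 followed at 15.4, 14.8 and 14.6 RPKM, with ranges that overlapped between neighbours. ERBB2 came next at 5.50 RPKM, then ERBB3 and IGF1R, which overlapped at 3.64 and 3.47 RPKM, then FGFR3 at 1.26 RPKM and FGFR1 at 0.0476 RPKM. In the KYSE510 controls the first 3 places went to MET (14.4 ± 1.44 RPKM, SD, n = 3), EPHA2 (12.3 RPKM) and IGF1R (10.4 RPKM), each overlapping the next. EGFR came after them at 8.95 RPKM, above ERBB2 in each of the 3 libraries. ERBB2, AXL, ERBB3, FGFR3 and FGFR2 followed between 6.79 and 4.51 RPKM, each overlapping its neighbour, and FGFR1 was last at 0.561 RPKM.

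**Figure D1:**
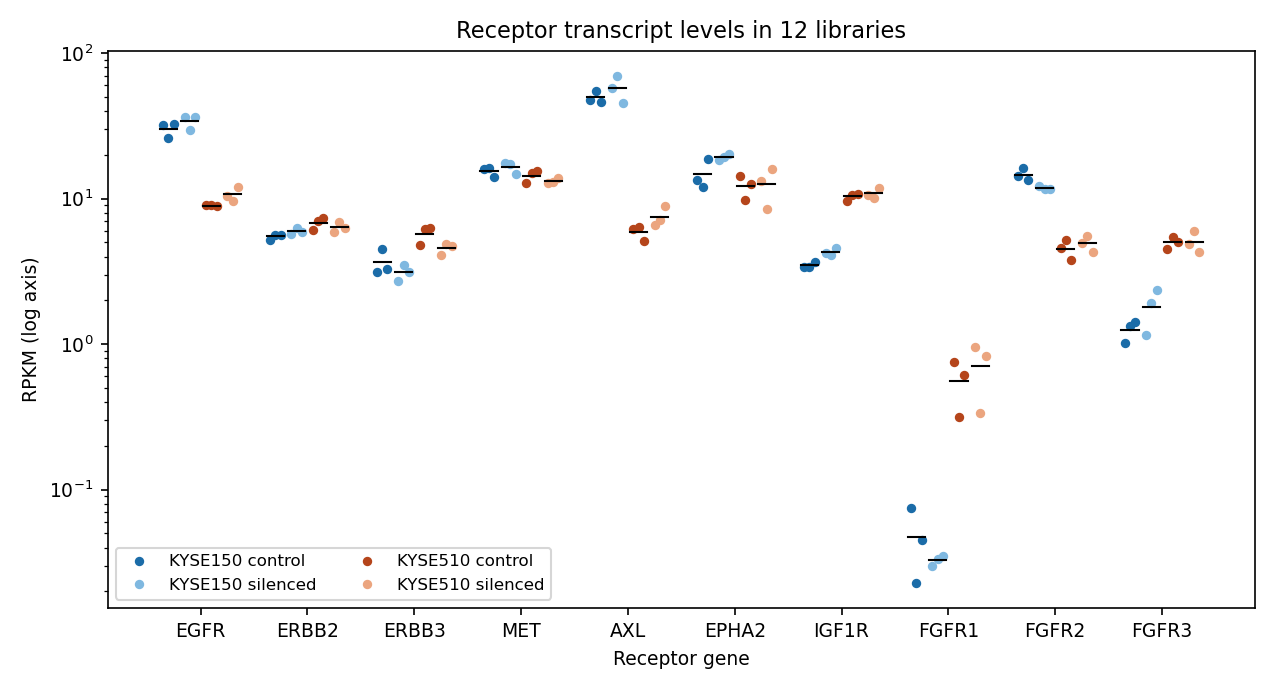
RPKM of each receptor in each of the 12 libraries, on a log axis, by group, with the group mean. AXL, EGFR and FGFR2 lie higher in both KYSE150 groups than in both KYSE510 groups, IGF1R and FGFR3 lie lower, and the control and silenced points of a line lie close to each other.

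Summed over the 10 receptors, the KYSE150 controls had 139 ± 2.20 RPKM and the KYSE510 controls 74.4 ± 1.69 RPKM (SD, n = 3 each). AXL and EGFR made up 57.6 ± 0.847% of this sum in KYSE150 and 19.9 ± 1.39% in KYSE510 (SD, n = 3 each). In the silenced libraries the share was 59.2 ± 2.28% in KYSE150 and 23.8 ± 1.22% in KYSE510 (SD, n = 3 each). The silenced KYSE510 libraries, at 22.9%, 23.3% and 25.2%, lay above their controls, at 20.9%, 20.6% and 18.4%. AXL and EGFR are the 2 receptors whose silenced and control KYSE510 libraries did not overlap. The separation of their share restates those values and was not tested. MET held 11.1% of the sum in KYSE150 and 19.3% in KYSE510, at levels of 15.4 and 14.4 RPKM. AXL stood above 94.1% of tested genes in the KYSE150 controls and 64.2% in the KYSE510 controls, and IGF1R above 51.2% and 75.9%.

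**Figure D2:**
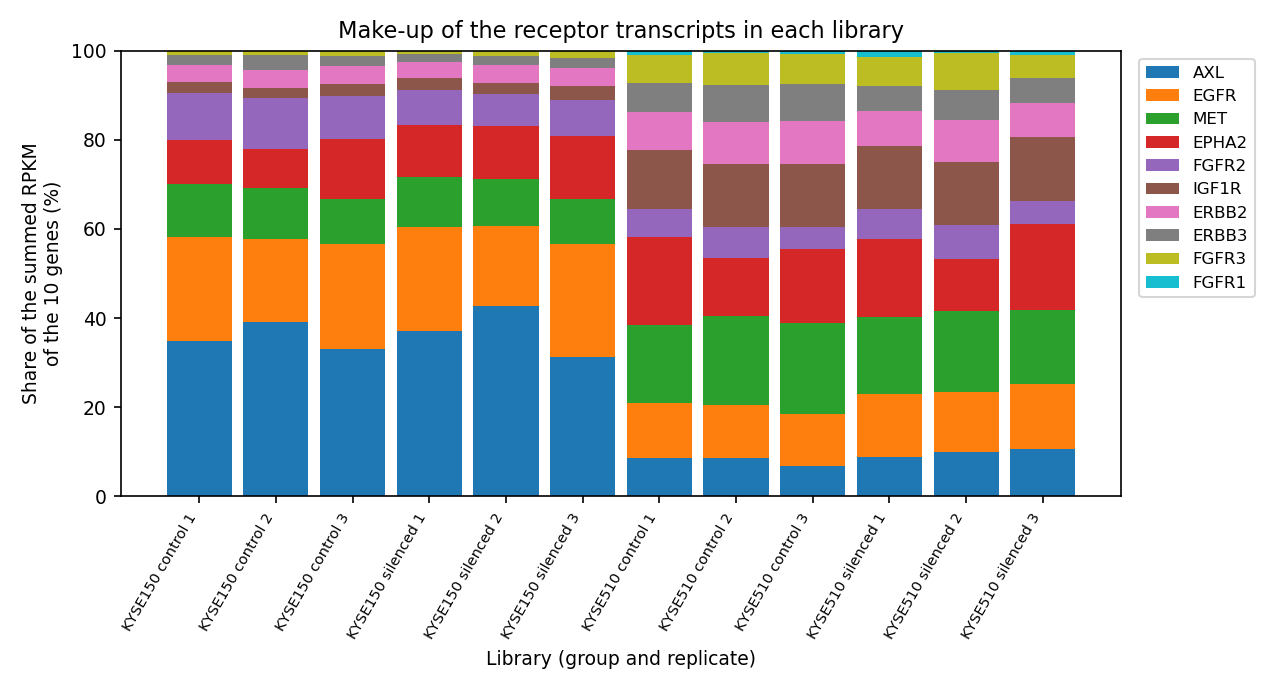
Share of the summed RPKM of the 10 receptors held by each receptor, in percent, as 1 stacked bar for each of the 12 libraries. AXL averages 35.7% in KYSE150 controls and 7.92% in KYSE510 controls, and IGF1R 2.50% and 13.9%.

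Between the control cells of the lines, 8 of 10 receptors differed at an adjusted p under 0.05 (limma over all tested genes, Benjamini-Hochberg), where 62.0% of all tested genes did. The 8 include FGFR1, which entered the test only through the line where it is high and so had to differ. It is described by its values alone. Of the other 9 receptors 7 were called: 4 were higher in KYSE510 (28.3% of all genes) and 3 higher in KYSE150 (33.7%). The difference of 5 of these 9 reached at least 1 on the log2 scale (21.1% of all genes). The 3 control libraries of each line did not overlap those of the other for the same 7 (64.0% of all genes). Voom on reads recovered from the RPKM called 8 with FGFR1. Differences below are KYSE510 minus KYSE150, on the log2(RPKM + 0.5) scale.

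EGFR (chr7:55019021-55211628, plus strand, GRCh38), the receptor of EGF, TGF-alpha and amphiregulin, measured 32.0, 26.2 and 32.8 RPKM in the KYSE150 controls and 9.01, 8.99 and 8.85 RPKM in the KYSE510 controls. Each KYSE150 library lay far above each KYSE510 library. The means differed 3.39-fold, and the log2 difference was -1.70 (SE 0.11, adjusted p = 2.0e-07). ERBB2 (chr17:39687914-39730426, plus strand), which has no ligand of its own and pairs with the other ERBB receptors, went the other way by a small amount. It measured 5.21, 5.64 and 5.64 RPKM in KYSE150 and 6.07, 6.98 and 7.32 RPKM in KYSE510, a difference of 0.28 (SE 0.09, adjusted p = 0.0161, between 0.00301 and 0.0688 over the alternatives). The groups did not overlap, but the call was lost without KYSE150 control replicate 1 (adjusted p = 0.0624), KYSE510 control replicate 2 (0.0528) or KYSE510 control replicate 3 (0.0688). ERBB3 (chr12:56079857-56103505, plus strand), the neuregulin receptor with a weak kinase, measured 3.14, 4.52 and 3.26 RPKM in KYSE150 and 4.78, 6.15 and 6.27 RPKM in KYSE510. All 3 KYSE510 libraries were above the KYSE150 libraries, by 0.60 (SE 0.14, adjusted p = 0.00380). The ratio of EGFR to ERBB2 was 5.53 ± 0.782 in KYSE150 and 1.33 ± 0.141 in KYSE510 (SD, n = 3 each).

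AXL (chr19:41219203-41261766, plus strand), the receptor of GAS6 and a marker of mesenchymal-like tumour cells, had the largest difference of the 10 on this scale. It measured 47.5, 55.2 and 46.1 RPKM in the KYSE150 controls and 6.19, 6.36 and 5.09 RPKM in the KYSE510 controls. The ratio of the means was 8.43, and the log2 difference -2.97 (SE 0.16, adjusted p = 2.9e-08). MET (chr7:116672390-116798386, plus strand), the receptor of hepatocyte growth factor, measured 16.0, 16.2 and 14.1 RPKM in KYSE150 and 12.8, 14.9 and 15.5 RPKM in KYSE510. These overlap, and the difference was -0.10 (95% interval -0.31 to 0.11, adjusted p = 0.388). EPHA2 (chr1:16124337-16156087, minus strand), a receptor of ephrin-A ligands on neighbouring cells, measured 13.5, 12.1 and 18.8 RPKM in KYSE150 and 14.3, 9.81 and 12.6 RPKM in KYSE510. It also overlapped, with a difference of -0.26 (95% interval -0.74 to 0.23, adjusted p = 0.330).

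The FGF receptors were reshuffled between the lines. FGFR2 (chr10:121478334-121598458, minus strand), whose epithelial form binds FGF7 and FGF10, measured 14.4, 16.1 and 13.4 RPKM in the KYSE150 controls and 4.56, 5.18 and 3.79 RPKM in the KYSE510 controls. It was lower in KYSE510 by a log2 difference of -1.60 (SE 0.12, adjusted p = 4.2e-07). FGFR3 (chr4:1793307-1808872, plus strand) went the opposite way, with 1.02, 1.33 and 1.43 RPKM in KYSE150 and 4.51, 5.44 and 5.05 RPKM in KYSE510, a log2 difference of 1.65 (SE 0.19, adjusted p = 1.6e-05). The ratio of FGFR2 to FGFR3 was 11.9 ± 2.38 in KYSE150 and 0.905 ± 0.136 in KYSE510 (SD, n = 3 each). FGFR1 (chr8:38411138-38468834, minus strand), the form typical of mesenchymal cells, was low throughout: 0.0747, 0.0230 and 0.0451 RPKM in KYSE150 and 0.756, 0.318 and 0.610 RPKM in KYSE510. These values rest on 6 to 19 reads per KYSE150 library and 102 to 231 per KYSE510 library. The ratio of the means was 11.8, while the difference on the log2(RPKM + 0.5) scale was 0.93, since the added 0.5 holds back low genes. On recovered reads, voom gave 3.56.

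IGF1R (chr15:98648971-98964530, plus strand), the receptor of IGF1 and IGF2, measured 3.40, 3.37 and 3.64 RPKM in the KYSE150 controls and 9.69, 10.6 and 10.8 RPKM in the KYSE510 controls. Its replicates were tight, and the log2 difference was 1.45 (SE 0.08, adjusted p = 4.5e-08).

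The genes next to EGFR differed between the lines in the same direction as EGFR. All 6 of its nearest tested neighbours, 3 on each side, were called higher in KYSE150 (33.7% of all genes), from -2.34 to -1.08. LINC01446 (0.907 RPKM in the KYSE150 controls) and RAC1P9 (2.12 RPKM, difference -2.34) were at 0 in the KYSE510 controls. They lie 1207 and 1239 kb away. Such genes pass the filter largely through the line where they are high, so their calls carry little weight. The others include SEC61G, a protein translocation subunit (-1.08), LANCL2 (-1.09) and VOPP1 (-1.10). EGFR-AS1 (-1.25) overlaps EGFR on the opposite strand, and strand use in the counting is not given in the sources used here, so its reads and those of EGFR cannot be told apart there. Around IGF1R 5 of 6 neighbours were called higher in KYSE510 (28.3% of all genes), among them SYNM, an intermediate filament protein, at 2.74. These 5 are not all separate: RP11-6O2.4 lies within the span of SYNM, and RP11-654A16.3 overlaps the span of IGF1R without shared exon bases. The call of RP11-35O15.1, at 0.0440 RPKM in the KYSE150 controls and 1.51 RPKM in the KYSE510 controls, also carries little weight. Around FGFR2, by contrast, 0 of 6 passed (limma adjusted p, differences from -0.19 to 0.46), and around FGFR3 only LETM1 (-0.66) did, in the other direction. For AXL the immediate neighbour HNRNPUL1 differed by -0.01 with an adjusted p of 0.913, while TGFB1 was lower in KYSE510 (-0.87) and CCDC97 (0.58) and the pseudogene CYP2B7P (3.26 RPKM, listed at 0 in KYSE150) were higher. CTD-2195B23.3, on the opposite strand and sharing 67 exon bases with AXL, differed by -3.00. MET lay beside CAV1 and CAV2, the caveolins, which differed by -1.09 and -2.03, where MET differed by -0.10. GRB7, next to ERBB2 and often amplified with it in tumours, was higher in KYSE510 (0.54). TCAP (-0.86) and STARD3 (-0.39), on the other side of ERBB2, were higher in KYSE150. TCAP was at 0.622 RPKM in the KYSE150 controls and 0.113 RPKM in the KYSE510 controls, so its call also carries little weight. ERBB3 shares 31 exon bases on its own strand with RP11-603J24.9, which reached 1072 RPKM, so some of the reads of ERBB3 are uncertain. ERBB2 shares 571 exon bases on the opposite strand with MIEN1, which reached 15.7 RPKM, and 194 with PGAP3, so its small line difference is uncertain in the same way. FGFR1 shares 156 exon bases on the opposite strand with RP11-350N15.4.

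**Figure D3:**
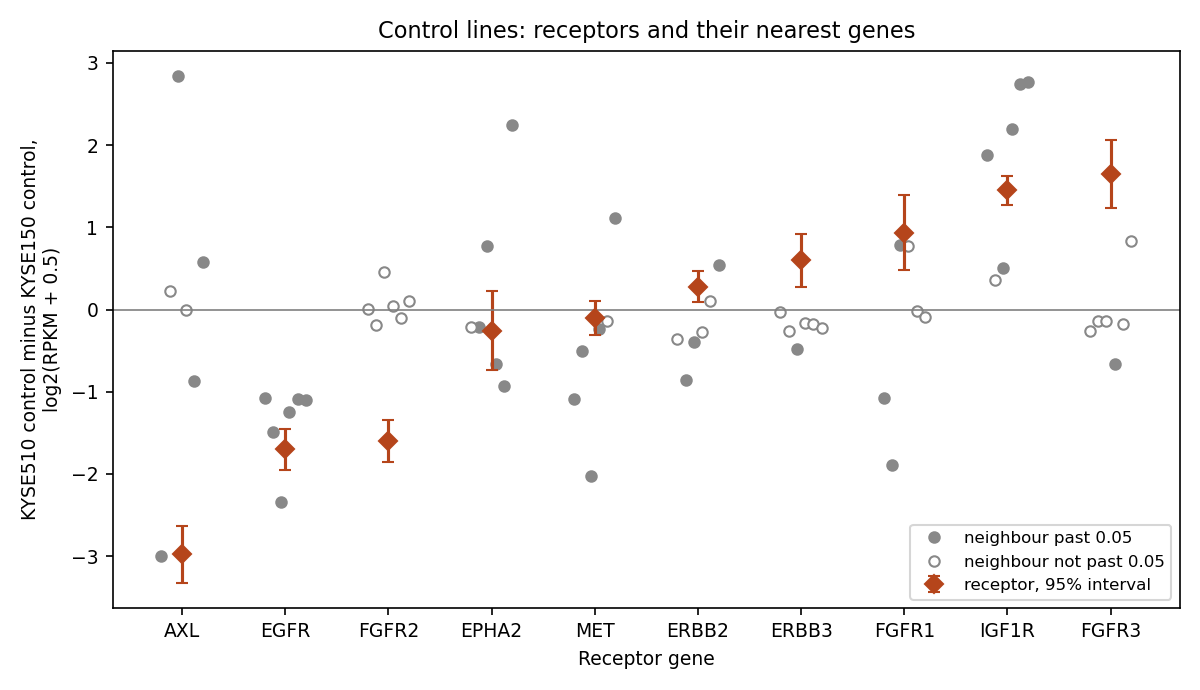
Difference between control lines, KYSE510 minus KYSE150, on the log2(RPKM + 0.5) scale, for each receptor (diamond with 95% interval) and its 6 nearest tested genes (circles, filled where the adjusted p is under 0.05). AXL (-2.97), EGFR (-1.70) and FGFR2 (-1.60) lie below 0, FGFR3 (1.65) and IGF1R (1.45) above it, and the circles lie on the side of the receptor for EGFR and IGF1R and around 0 for FGFR2.

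Over the 12 libraries, the genes whose log2 levels around their own mean were most like EGFR were FAM126A (root mean square difference 0.0993), TBRG1 (0.114) and ANXA1 (0.115), out of 14013 genes compared. FAM126A lies on the same chromosome, and ANXA1, a calcium-dependent membrane-binding protein, averaged 95.2 RPKM in the KYSE150 controls and 34.5 RPKM in the KYSE510 controls. Among the other receptors FGFR2 was nearest, at 0.300. This likeness follows mainly the gap between the lines, which all 12 points share.

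In the fit without a replicate block, silencing of HCP5 called none of the receptors in KYSE150. The limma test called 0 of 10 at an adjusted p under 0.05 (2 at an unadjusted p under 0.05, which 18.1% of all genes had, and 0 by voom on recovered reads), where 0.499% of all genes were called. The changes ran from -0.30 to 0.40 on the log2 scale, with a median of 0.14 beside 0.08 over all genes. With the replicate number as a block, 2 of 10 were called, IGF1R upward and FGFR2 downward, where 6.70% of all genes were. Silenced and control libraries did not overlap for 3 of 10, against 19.2% of all genes.

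IGF1R measured 3.40, 3.37 and 3.64 RPKM in the KYSE150 controls and 4.26, 4.11 and 4.57 RPKM in the silenced libraries. Each silenced library was above each control. The change was 0.28 (SE 0.08), with an adjusted p of 0.138, which was 0.0478 in the blocked fit and between 0.0103 and 0.422 over all alternatives. FGFR2 measured 14.4, 16.1 and 13.4 RPKM in controls and 12.2, 11.7 and 11.6 RPKM in silenced cells, so that each silenced library was below each control. Its change was -0.30 (SE 0.12), with an adjusted p of 0.235, which was 0.0468 in the blocked fit and between 0.00844 and 0.582 over all alternatives. ERBB2 was the other receptor whose groups did not overlap, at 5.21 to 5.64 RPKM in controls and 5.68 to 6.24 RPKM in silenced cells. The change of ERBB2 was 0.11 (adjusted p = 0.535), and -0.02 when each library was centred on its median gene, a scaling that moves the median of all genes from 0.08 to -0.05. MET, at 0.09 (adjusted p = 0.624), was likewise -0.03 after centring.

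The other KYSE150 receptors overlapped between groups. AXL measured 58.0, 69.5 and 45.2 RPKM in the silenced libraries, so that its lowest silenced value was below all 3 controls. The change of AXL was 0.20 (SE 0.16, adjusted p = 0.524). EGFR measured 36.6, 29.5 and 36.4 RPKM, a change of 0.17 (SE 0.11, adjusted p = 0.444), and each silenced library was above its same-numbered control. With each library centred on its median gene, the change of EGFR was 0.04 (limma adjusted p = 0.878). EPHA2 measured 18.5, 19.3 and 20.2 RPKM against 13.5, 12.1 and 18.8 RPKM in the controls, a change of 0.40 (SE 0.22, adjusted p = 0.358), with each silenced library above its same-numbered control. FGFR3 measured 1.15, 1.93 and 2.35 RPKM, a change of 0.36 (SE 0.19, adjusted p = 0.333), and ERBB3 2.73, 3.49 and 3.14 RPKM, a change of -0.18 (SE 0.14, adjusted p = 0.514). FGFR1 had 10 to 12 reads per silenced library, and no change was detectable at this depth.

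In KYSE510, too, limma called 0 of 10 receptors after silencing (0 at an unadjusted p under 0.05, which 6.35% of all genes had, and 0 by voom on recovered reads), where 0.0393% of all genes were called. Each adjusted p was 0.809 or more. The median change was 0.03, beside -0.02 over all genes. Silenced and control libraries did not overlap for 2 of 10 receptors, against 12.1% of all genes. EGFR was the first, with 10.5, 9.64 and 12 RPKM in silenced cells above 9.01, 8.99 and 8.85 RPKM in controls, a change of 0.24 (SE 0.11, adjusted p = 0.809). AXL was the other, with 6.55, 7.18 and 8.84 RPKM above 6.19, 6.36 and 5.09 RPKM, a change of 0.33 (SE 0.16, adjusted p = 0.832). ERBB3 measured 4.11, 4.90 and 4.70 RPKM against 4.78, 6.15 and 6.27 RPKM, a change of -0.29 (SE 0.14, adjusted p = 0.851), and the groups overlapped. FGFR2 measured 4.99, 5.55 and 4.27 RPKM, each slightly above its same-numbered control, and IGF1R 10.6, 10.1 and 11.9 RPKM. MET (12.9, 13.1 and 13.8 RPKM), ERBB2 (5.88, 6.88 and 6.31 RPKM) and FGFR3 (4.91, 6 and 4.27 RPKM) overlapped their controls. EPHA2 was 13.2, 8.44 and 15.9 RPKM, the largest SD (3.79 RPKM) of the receptors in silenced KYSE510 cells, with a change of -0.0003 (95% interval -0.48 to 0.48).

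**Figure D4:**
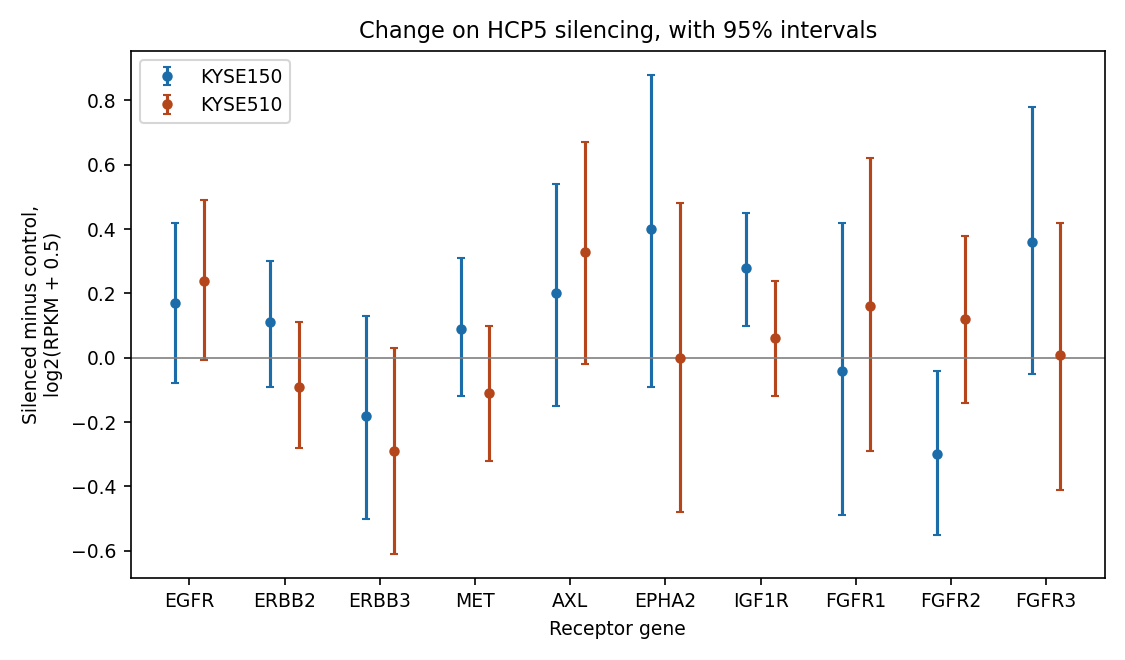
Change after HCP5 silencing, silenced minus control, for each receptor in KYSE150 and in KYSE510, on the log2(RPKM + 0.5) scale, with 95% intervals. The changes lie between -0.30 and 0.40, and the intervals of IGF1R (0.10 to 0.45) and FGFR2 (-0.55 to -0.04) in KYSE150 are those that do not cross 0.

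Averaged over both lines, limma called 0 of 10 receptors (4 at an unadjusted p under 0.05, which 11.5% of all genes had, and 0 by voom on recovered reads), where 0.539% of all genes were called. With the replicate block the count was 0 of 10, against 2.74% of all genes. EGFR was higher in the silenced library in 6 of 6 same-numbered pairs, with a mean change of 0.21 (SE 0.08, adjusted p = 0.356). ERBB3 was lower in 6 of 6 pairs, with a mean change of -0.24 (SE 0.10, adjusted p = 0.403). With each library centred, the mean changes of EGFR and ERBB3 were 0.15 and -0.29. The share of all genes with 6 of 6 pairs in the same direction was not counted. The mean changes of AXL and IGF1R were 0.26 (SE 0.11, adjusted p = 0.400) and 0.17 (SE 0.06, adjusted p = 0.281). The difference in change between the lines was called for 0 of 10 receptors (1 at an unadjusted p under 0.05, which 12.2% of all genes had, and 0 by voom on recovered reads), and for 0% of all genes. Of 9 squamous markers, limma called 1 on the mean over lines, close to the threshold. TP63, the transcription factor of basal squamous cells, rose by 0.32 (adjusted p = 0.0483). Of the 9 markers 8 had a positive mean change, and SOX2 had a negative one (-0.15, adjusted p = 0.722). With the block, 8 of 9 squamous markers were called higher in KYSE150, where 6.70% of all genes were called in either direction. Of those 1194 genes, 898 were higher in silenced cells. The part of the marker changes in the receptor values was not tested.

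The other genes of these pathways were read from lists of other receptor tyrosine kinases, ligands, adaptors with the RAS-MAPK and PI3K chain, inhibitors, and MAPK-responsive transcripts. The counts called between control lines are to be read beside the 62.0% of all genes. Leaving out genes that reached 0.5 RPKM in 1 line alone, they were 10 of 13 other receptors, 9 of 11 ligands, 20 of 33 adaptors, 14 of 22 inhibitors and 4 of 8 MAPK-responsive transcripts. This does not remove the selection by the filter. Genes with fewer than 3 libraries at 0.5 RPKM in their lower line can remain in these counts. Among them are ETV5 (0.206 RPKM in the KYSE510 controls) and SPRY2 (0.364 RPKM). Over all tested genes of the lists, 8 of 17 tested other receptor tyrosine kinases were higher in KYSE510 and 6 lower, with a median difference of 0.19 beside -0.07 over all genes. Without those that reached 0.5 RPKM in 1 line alone, 6 of 13 were higher (28.3% of all genes) and 4 lower (33.7%). FGFR4, the remaining FGF receptor, was at 1.45 RPKM in KYSE150 and 7.21 RPKM in KYSE510, and EPHB2, a receptor of ephrin-B ligands, at 1.36 and 6.98 RPKM (difference 2.01). The Wnt-pathway pseudokinase PTK7 was also higher in KYSE510 (0.94). The 10 receptors made up 69.6 ± 3.23% of the summed RPKM of all listed receptor tyrosine kinases in the KYSE150 controls and 50.7 ± 1.10% in the KYSE510 controls (SD, n = 3 each).

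Ligands were called in both directions, 7 of 16 higher and 7 lower in KYSE510, with a median of -0.34. Without the 5 ligands that reached 0.5 RPKM in 1 line alone, 3 of 11 were higher (28.3% of all genes) and 6 lower (33.7%). GAS6, the ligand of AXL, was at 8.66 ± 1.82 RPKM in KYSE150 and 0.458 ± 0.0517 RPKM in KYSE510 (SD, n = 3 each), a difference of -3.24, so receptor and ligand were both lower in KYSE510. The EGFR ligands AREG (22.5 and 2.81 RPKM, difference -2.76) and TGFA (4.67 and 1.26 RPKM, difference -1.55) were lower there as well. NRG1, the ligand of ERBB3, was lower in KYSE510 (-2.03) while ERBB3 was higher. FGF1, which binds all FGF receptors and reached 0.5 RPKM in KYSE150 alone, differed by -2.19, and the ephrin EFNA4 by 0.91.

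Of 34 adaptors and chain members, 8 were higher and 13 lower in KYSE510, with a median of -0.05. These counts and those of the inhibitors are to be read beside 28.3% of all genes called higher and 33.7% called lower. Without GRB14 the counts were 7 and 13 of 33. GRB14, an adaptor that inhibits the insulin receptor and reached 0.5 RPKM in KYSE510 alone, was at 0.0111 RPKM in KYSE150 and 2.48 RPKM in KYSE510 (2.53). GAB2, a docking protein for PI3K, differed by -1.77, NRAS by -0.90 and SHC1, which links receptors to RAS, by 0.79. Of 24 inhibitors 8 were higher and 8 lower (median -0.07). Without LRIG1 and CBLB, which reached 0.5 RPKM in 1 line alone, the counts were 6 and 8 of 22. Called inhibitors included IGF2R, which clears IGF2 (1.33), the FGF receptor decoy FGFRL1 (-1.62), SPRY2 (-1.15) and CBL, the ubiquitin ligase of EGFR (-1.14). SPRY2 was at 0.364 RPKM in the KYSE510 controls, so its call carries little weight. Of 8 MAPK-responsive transcripts 0 were called higher (28.3% of all genes) and 4 lower (33.7%) in KYSE510, with a median of -0.93. The 4 include ETV5, at 0.206 RPKM in the KYSE510 controls, whose call carries little weight. FOSL1, an AP-1 subunit, was at 164 ± 49.1 RPKM in KYSE150 and 31.4 ± 10.9 RPKM in KYSE510 (SD, n = 3 each), a difference of -2.39. PHLDA1 differed by -1.84 and IER3 by -0.99.

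**Figure D5:**
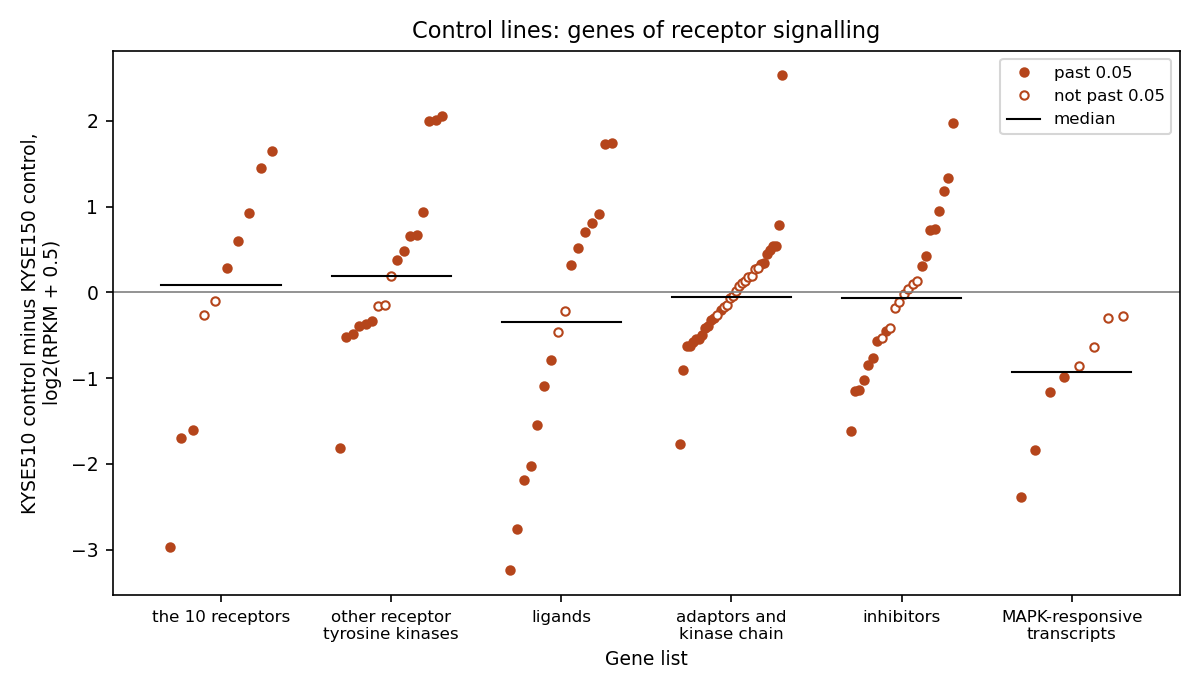
Difference between control lines, KYSE510 minus KYSE150, on the log2(RPKM + 0.5) scale, for the 10 receptors and each tested gene of the 5 pathway lists, 1 point per gene, filled where the adjusted p is under 0.05, with a line at each median. The ligands spread widest, down to GAS6 at -3.24, and the 8 MAPK-responsive transcripts all lie below 0.

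After silencing, limma called no gene of these 5 lists in either line at an adjusted p under 0.05. At an unadjusted p under 0.05 the counts in KYSE150 were 6 other receptors, 3 ligands, 7 adaptors, 7 inhibitors and 2 MAPK-responsive transcripts, where 18.1% of all genes had such a p. In KYSE510 they were 0, 0, 1, 1 and 0, where 6.35% of all genes did. With the replicate block, 4 of 17 other receptors, 3 of 16 ligands, 3 of 34 adaptors, 3 of 24 inhibitors and 2 of 8 MAPK-responsive transcripts were called in KYSE150. All of these were higher in silenced cells. Of all genes 6.70% were called in either direction, and 898 of those 1194 were higher. The called genes of the lists, named next, were singled out after their values were seen. The other receptors were PTK7, EPHB4, RYK and DDR1, the adaptors SHC1, IRS1 and MAPK3, and the ligands GAS6 (8.66 to 12.5 RPKM, change 0.52), TGFA (4.67 to 7.19 RPKM, 0.59) and FGF2 (2.81 to 4.04 RPKM, 0.46). Their adjusted p-values without the block were 0.0947, 0.175 and 0.189. The MAPK-responsive transcripts were ETV5 (0.69) and IER3 (0.75), and the inhibitors were SPRED1, DUSP5 and the ERK phosphatase DUSP6 (0.95). ETV5, IER3 and DUSP6 had adjusted p-values without the block of 0.0843, 0.186 and 0.218.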

How the data were processed

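Expression was read from the deposited table of RPKM, which the authors scaled to exon length and to assigned reads. HISAT2, DESeq and GRCh38 are named per the submitters' processing notes, with no role or version. The annotation release and the use of strand are not given in the sources used here. RPKM times gene length gave whole reads for 100.0% of values (within 0.01 reads) in 12 of 12 libraries. Genes with at least 0.5 RPKM in at least 3 libraries were tested on log2(RPKM + 0.5) with limma 3.58.1 in R 4.3.3. In a check of the KYSE150 silencing test on simulated data, false calls took a larger share of calls than the nominal 5%. The simulation gave all genes the same dispersion and drew libraries independently, unlike the pairs assumed here. Calls, above all those of low genes, need care. The fit had 4 group means over 12 libraries, a mean-variance trend and 8 residual degrees of freedom, and Benjamini-Hochberg adjustment over all tested genes. Positions are the deposited ones. Same-numbered control and silenced libraries (last digit of the title) were taken as pairs, which is an assumption. Their deviations from the group means correlated at 0.147 to 0.415 in 6 pairs, against -0.385 to 0.184 in 12 other pairings. Deviations within a group sum to 0, so positive values in the pairs push the other pairings down, and the 2 ranges are not independent. KYSE150 control 2 correlated more with silenced library 1 (0.184) than with silenced library 2 (0.147). Members and lists were chosen with earlier results of these data known. Named from each list were at most 6 genes: those called on silencing in the unblocked fit, otherwise the largest line differences at a mean of at least 1 RPKM. Genes called only with the replicate block were added after their values were seen. Alternatives were other pseudocounts, filters and scalings, voom on recovered reads, an untrended fit, each line alone, the replicate block, and each library left out.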

Additional observations from a re-analysis of the deposited data

Results flagged for a closer look

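ERBB2 was higher in the silenced library in 3 of 3 KYSE150 pairs and in 0 of 3 KYSE510 pairs, opposite directions on the deposited scale. The changes were 0.11 and -0.09 on the log2(RPKM + 0.5) scale. This opposition depends on the scaling: the KYSE150 change was -0.02 with each library centred and -0.01 with quantile normalization, and the difference between lines was then -0.04 and -0.05. The difference, KYSE510 minus KYSE150, was -0.19 (SE 0.12), with an adjusted p of 0.481 by limma and of 0.205 with the replicate block, so the test of the difference did not pass.

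FGFR2 was lower in the silenced library in 3 of 3 KYSE150 pairs and higher in 3 of 3 KYSE510 pairs. The changes were -0.30 and 0.12, and their difference was 0.42 (SE 0.17), with an adjusted p of 0.396 by limma and of 0.117 with the replicate block. On recovered reads with the block, voom gave a difference of 0.44 with an adjusted p of 0.0307.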

How the results depend on the processing

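The count of receptors that differed between control lines was 7 or 8 under each alternative run, FGFR1 included where it was tested. It was 7 with a mean of at least 1 RPKM required, where FGFR1 is not tested, and without KYSE150 control replicate 1, KYSE510 control replicate 2 or KYSE510 control replicate 3, where ERBB2 is lost. With the replicate block, the count called on silencing in KYSE150 was 2 in place of 0. The replicate block combined with voom on reads called 4 in KYSE150 (17.8% of all genes), 1 in KYSE510 (2.14%), 4 on the mean over lines (6.83%) and 1 on the difference between lines (6.68%); the cause was not tested. In KYSE150 these were IGF1R, FGFR2, FGFR3 and EPHA2, in KYSE510 ERBB3, on the mean EGFR, ERBB3, IGF1R and AXL, and on the difference FGFR2. The block changed no other call of a receptor. Leaving out a library in turn kept each silencing count at 0. No called difference changed sign. The blocked fit has 4 residual degrees of freedom. FGFR1 in KYSE150 rests on at most 19 reads per library.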

Other observations

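The ratio of EGFR to ERBB3 RPKM was 10.2, 5.80 and 10.1 in the KYSE150 controls and 13.4, 8.45 and 11.6 in the silenced libraries. The KYSE510 controls gave 1.88, 1.46 and 1.41, and their silenced counterparts 2.55, 1.97 and 2.55. That the silenced library was higher in every pair follows from the values of EGFR and ERBB3 given above and adds nothing to them. The groups did not overlap in KYSE510 and overlapped in KYSE150. The ratio of AXL to ERBB3 had means of 13.8 and 18.5 in KYSE150 controls and silenced cells and 1.05 and 1.65 in KYSE510. Both ratios were chosen after the values of their genes were seen, share ERBB3, and were not tested.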
